A study of Mus musculus with 6 samples.

Results

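Bone morphogenetic protein (BMP) pathway and Id genes were followed in 3 established mouse mammary lines, as the 10 genes Bmp1, Bmp4, Bmpr1a, Bmpr2, Smad1, Smad5, Smad6, Id1, Id2 and Id3. They were taken by gene symbol from the deposited RPKM table, which lists 11417 genes, and all 10 were listed. RPKM is reads per kilobase of gene length, scaled per 1000000 reads, so its levels can be compared between genes. Poly(A) RNA of BC44, HC11 and C57MG cells was sequenced as 2 libraries per line and 6 in all, without treatment and on plastic. BC44 and HC11 were grown in RPMI, 10% serum and insulin at 5 µg/ml, to which 10 ng/ml EGF (epidermal growth factor) was added for HC11. The medium of C57MG was DMEM, 10% serum and insulin at 10 µg/ml, so line and medium cannot be told apart. No source says whether the 2 libraries of a line came from separate cultures, so p-values measure only the spread between these libraries, which may be technical.

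BMPs are secreted ligands of the TGF-beta family that bind a complex of type I receptors, such as BMPR1A, and type II receptors, such as BMPR2. The type I receptor phosphorylates SMAD1, SMAD5 and SMAD9, which join SMAD4 and enter the nucleus. Among the best known genes induced there are the Id genes, whose proteins bind E proteins and keep them off DNA, and Smad6, whose product blocks the same pathway. In the mammary gland, BMP4 is mainly known as a ligand made in the stroma, and ID1 as a factor that holds epithelial cells back from differentiation.

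The labels call all 3 lines mammary epithelial. Of 12 epithelial marker genes 11 were listed, and both libraries had at least 1 RPKM for 11 of them in HC11, 9 in BC44 and 0 in C57MG. Their summed level was 724.0 to 1089.0 RPKM in BC44 and HC11 but 8.27 and 0.076 RPKM in C57MG, where Epcam and Cdh1 were listed at 0 in replicate 2. The 11 listed mesenchymal markers summed to 7686 and 7949 RPKM in C57MG and to 478 to 586 RPKM in the other lines. A faint signal of another line was also present: 71 genes private to C57MG (at least 20 RPKM there and at most 2% of that in HC11) stood at a median of 2.02% of their C57MG level in BC44 replicate 2, and 72 such genes at 0.682% in BC44 replicate 1. In C57MG replicate 1, 11 genes private to BC44 stood at a median of 0.729% of their BC44 level. Estimated depth was 14090000 to 18370000 reads per library.

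All 10 genes were tested, Bmp4 through its level in C57MG alone. Of the pathway genes described beside them, 9 likewise reached 1 RPKM in both libraries of 1 line and in no other library: Eng, Smad9, Zeb1, Atoh8 and Gata2 in C57MG, Bmp7 and Dlx3 in BC44, and Fstl1 and Fstl3 in HC11. A gene that entered through its high line had to differ from the others, so these genes are given by their levels, and their part in a list's count is no support for it. Between BC44 and C57MG, 8 of 10 differed (limma adjusted p under 0.05), 2 higher in BC44 and 6 in C57MG. The share over the 10759 tested genes was 71.7% (37.5% toward BC44, 34.1% toward C57MG). In the comparison of HC11 with C57MG, 9 of 10 differed, 3 higher in HC11 and 6 in C57MG, against 70.5% of all tested genes (37.4% and 33.2%). Between BC44 and HC11, 5 of 10 differed, 3 higher in BC44 and 2 in HC11, against 47.7% (24.7% and 23.0%). Bmp4 is among the 3 higher in BC44, where it could not be told apart from the faint C57MG-like signal. For BC44 against either line these shares lie near those of all tested genes, and 1 gene more or less moves a share of 10 by 10 points, so the counts show nothing particular to the pathway. The 3 comparisons share libraries pairwise and are not independent. The median size of the difference in log2(RPKM + 1), the scale of all log2 values here, was 0.97, 0.86 and 0.48 in the same order.

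**Figure D1:**
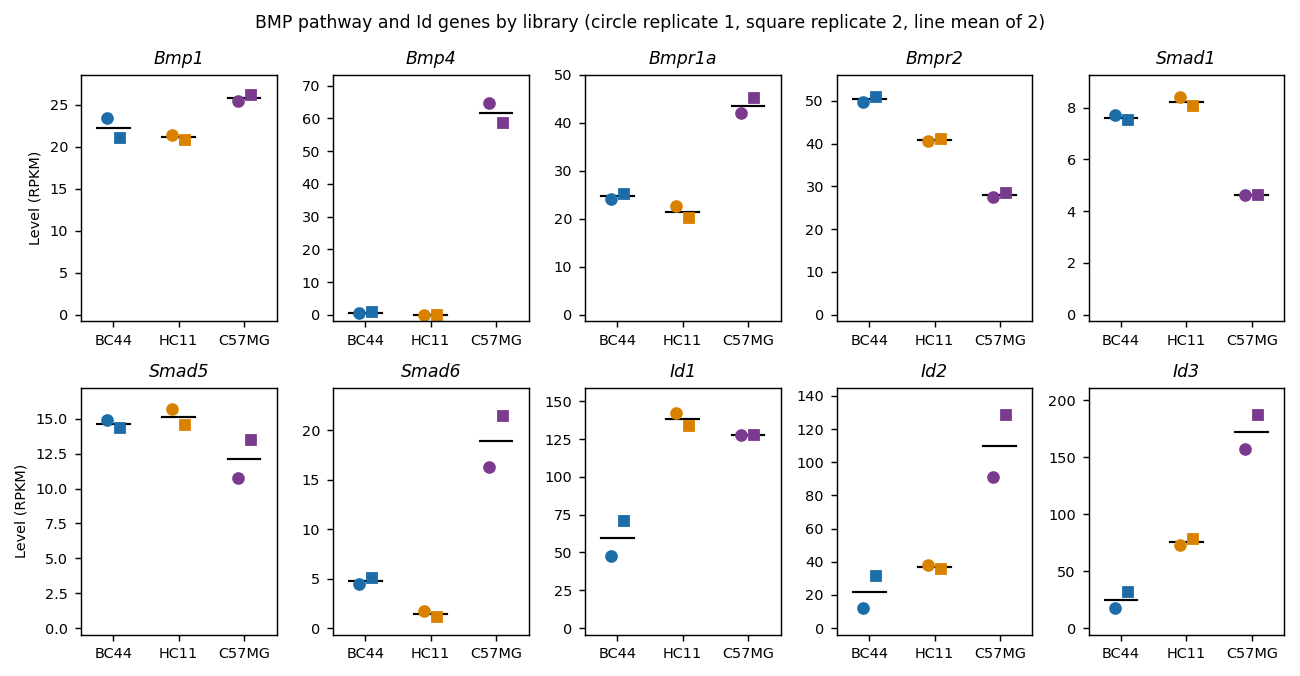
Level in RPKM (vertical axes from 0, a scale per gene) of the 10 genes in the 6 libraries, with circles for replicate 1, squares for replicate 2 and a line for the mean of 2. Bmp4, Bmpr1a, Smad6, Id2 and Id3 were highest in both C57MG libraries, while Bmpr2 and Smad1 were lowest there.

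**Figure D2:**
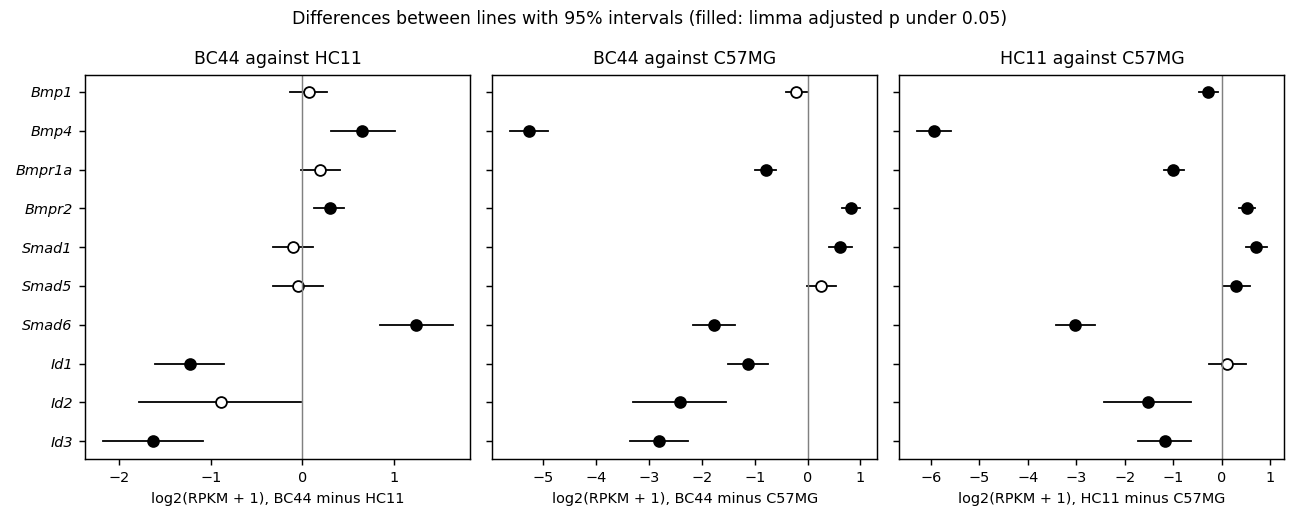
Difference of log2(RPKM + 1) between lines for each gene, with the 95% interval of the limma fit, filled where the adjusted p was under 0.05. Bmp4 had the largest difference in both comparisons with C57MG, and the Id genes lay toward HC11 in the comparison of BC44 with HC11.

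Bmp4, the BMP ligand among the members (ENSMUSG00000021835, chr14:46383520-46390669, minus strand, GRCm38), was expressed strongly in C57MG and was close to absent in the other lines. It stood at 64.7 and 58.5 RPKM in C57MG, at 0.400 and 0.876 in the BC44 libraries, and at 0.048 and 0 in those of HC11. In such bulk RNA, fewer cells with a transcript and less of it per cell cannot be told apart. The groups did not overlap, and the lowest C57MG library lay far above every other. The C57MG mean was 61.6 ± 4.43 RPKM (SD, n = 2), at least 736-fold above HC11, whose libraries held an estimated 2 and 0 reads and were set to a floor of 3 reads per library. As Bmp4 was tested through C57MG alone, its tests against that line are a description. On the log2(RPKM + 1) scale C57MG was above BC44 by 5.27 (SE 0.15, limma adjusted p 2.71e-07), a 96.6-fold ratio of means. It was above HC11 by 5.93 (SE 0.15, limma adjusted p 1.97e-07). BC44 was also above HC11, by 0.66 (SE 0.15, limma adjusted p 0.00952). That last difference is bounded by the C57MG-like signal in the BC44 libraries: at its median that signal would give 0.420 and 1.25 RPKM of Bmp4 in BC44 replicates 1 and 2, no less than the 0.400 and 0.876 RPKM measured. A BC44 level of Bmp4 of its own cannot be told apart from that signal. Of the private genes, 62.5% in BC44 replicate 1 and 97.2% in replicate 2 lay within 2-fold of the median. In HC11 replicates 1 and 2 the medians were 0.327% and 0.383%. These would give 0.202 and 0.236 RPKM of Bmp4, above the 0.048 and 0 measured, so the median is a rough guide for a single gene.

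Bmp1 (ENSMUSG00000022098, chr14:70474558-70520234, minus strand) is named with the BMPs but encodes a metalloprotease that trims procollagens and releases BMPs from the antagonist chordin. It was nearly level across the lines, at 23.4 and 21.0 RPKM in BC44, 21.4 and 20.8 RPKM in HC11, and 25.4 and 26.2 RPKM in C57MG. The C57MG libraries were the highest, by little. C57MG was above HC11 by 0.28 (SE 0.09, limma adjusted p 0.0216), a call that did not hold when either C57MG library or HC11 replicate 2 was left out (adjusted p 0.0692 to 0.123). Against BC44 the difference of 0.21 did not pass (limma adjusted p 0.0610, 95% interval of BC44 minus C57MG -0.41 to -0.01). Between BC44 and HC11 the interval was -0.13 to 0.27.

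Of 19 ligand and processing genes searched, 8 were listed and tested. Of these, 7 (87.5%, against 70.5% of all tested genes) differed between HC11 and C57MG, 6 of them higher in C57MG, with a median log2 difference of -1.73 against 0.03 for all tested genes. Between BC44 and C57MG 7 of 8 differed (87.5% against 71.7%), 4 of them higher in C57MG. In BC44 against HC11 it was 6 of 8 (75.0% against 47.7%), 5 of them higher in BC44. Those 5 include Bmp4 and Pcolce, and how much of their low BC44 levels was C57MG-like signal was not tested. In a list this short, 1 gene moves the share by over 10 points. Pcolce, the cofactor that raises the activity of BMP1 on procollagen, stood at 105.0 and 113.3 RPKM in C57MG against 1.74 and 2.82 in BC44 and 0.915 and 0.602 in HC11. C57MG exceeded HC11 by 5.97 (SE 0.17, limma adjusted p 2.41e-07), so this cofactor differed widely between lines in which the protease barely did. In BC44 replicates 1 and 2 Pcolce was at 1.59% and 2.58% of its C57MG mean, against medians of 0.682% and 2.02% for the C57MG-like signal. Pcolce itself met the rule for the private genes behind those medians. Bmp7, a ligand of the same family, was highest in BC44. It was at 8.70 and 6.13 RPKM in BC44, 0.415 and 0.139 in HC11, and listed at 0 in both C57MG libraries, at least 165-fold lower than in BC44. Pcsk6, a convertase that cuts TGF-beta family precursors, was at 9.34 and 6.65 RPKM in HC11, 2.29 and 1.55 in BC44, and listed at 0 in C57MG.

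**Figure D3:**
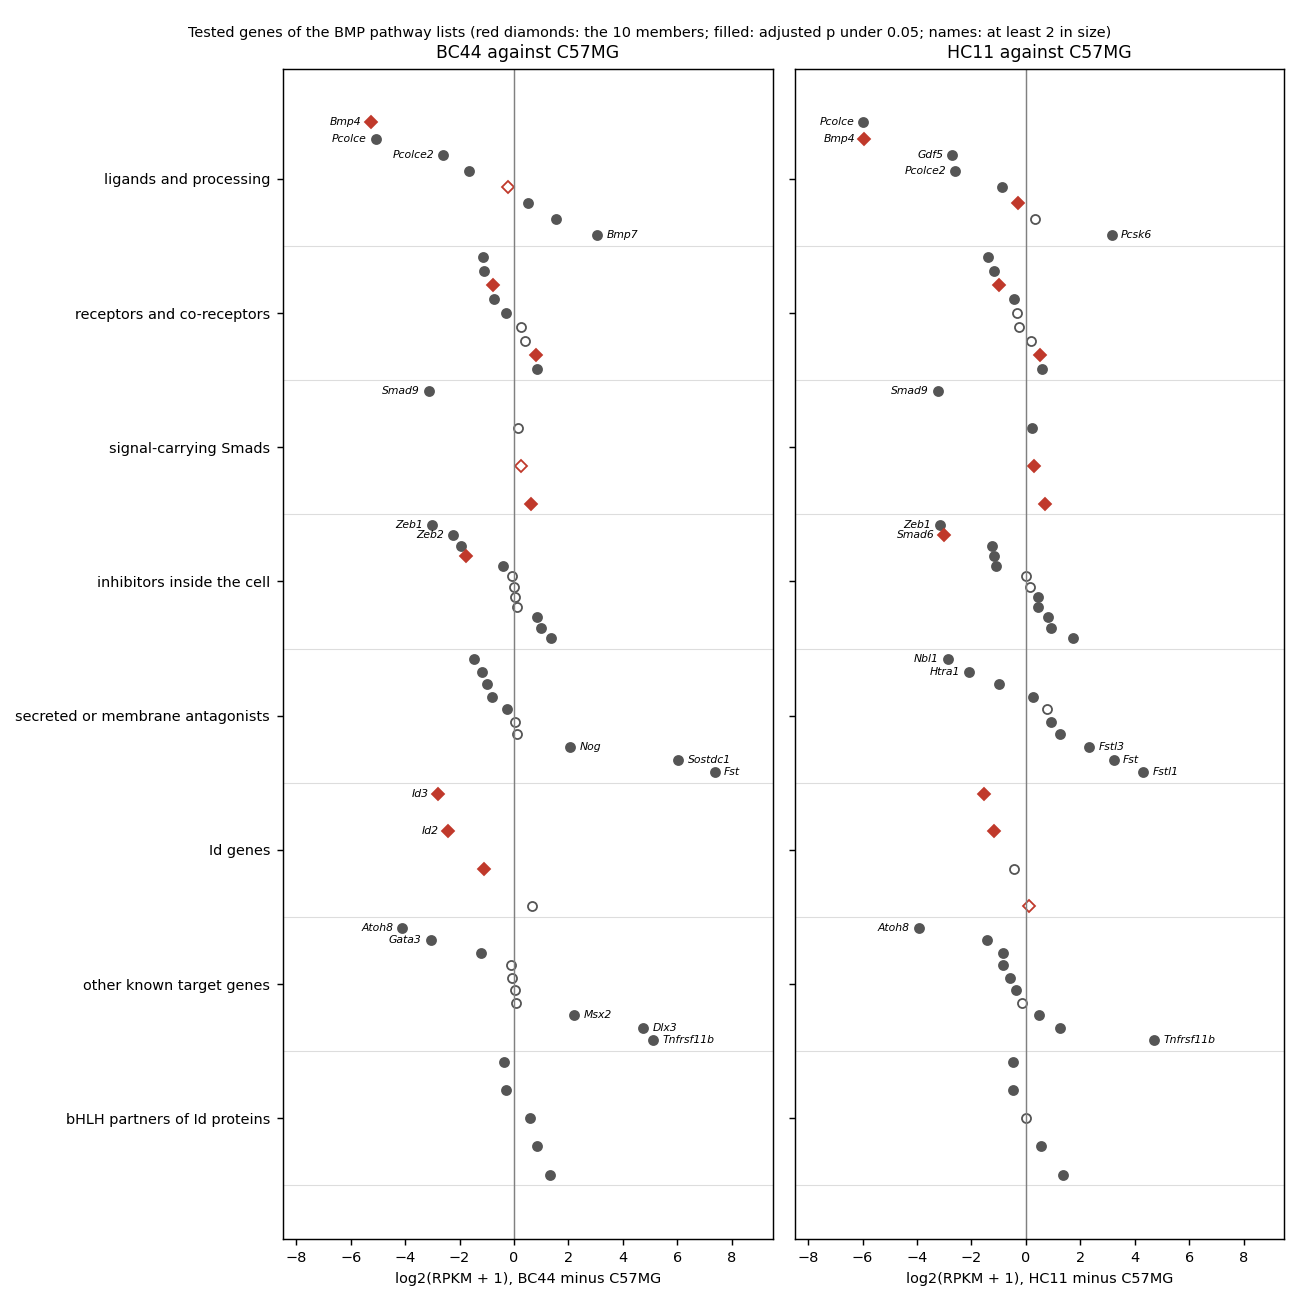
Difference of log2(RPKM + 1) for the tested genes of 8 role lists, BC44 minus C57MG on the left and HC11 minus C57MG on the right, with members as red diamonds and filled symbols for an adjusted p under 0.05. Bmp4 and Pcolce lie near -5 to -6 in both panels, while Fst lies at 7.38 and 3.24.

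The receptor pair shifted in opposite directions. Bmpr1a, the type I receptor (ENSMUSG00000021796, chr14:34410734-34503341, minus strand), was at 41.995 and 45.1 RPKM in C57MG, 24.2 and 25.2 in BC44, and 22.6 and 20.1 in HC11. Both C57MG libraries exceeded all others, and C57MG was higher than BC44 by 0.79 (SE 0.09, limma adjusted p 0.000118) and than HC11 by 1.00 (SE 0.09, limma adjusted p 3.90e-05). BC44 and HC11 did not overlap but did not pass (0.20, 95% interval -0.01 to 0.41, limma adjusted p 0.0996). Bmpr2, the type II receptor (ENSMUSG00000067336, chr1:59763400-59879014, plus strand), was lowest in C57MG at 27.6 and 28.5 RPKM. It reached 40.5 and 41.0 RPKM in HC11 and 49.8 and 50.8 RPKM in BC44. All 3 lines were separated for Bmpr2: BC44 exceeded C57MG by 0.82 (SE 0.07, limma adjusted p 2.96e-05), and HC11 exceeded C57MG by 0.52 (SE 0.07, limma adjusted p 0.000380). BC44 exceeded HC11 by 0.30 (SE 0.07, limma adjusted p 0.0119), which was 0.28 with an adjusted p of 0.0562 without BC44 replicate 2.

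The ratio of Bmpr1a to Bmpr2 within a library was therefore 1.52 and 1.58 in C57MG, against 0.486 and 0.496 in BC44 and 0.557 and 0.491 in HC11. The summed RPKM of both receptors varied less, from 61.2 in an HC11 library to 76.0 in a BC44 library. With 2 libraries against 2, an exact permutation test cannot give a p under 0.33, so ratios are given without a test. Of 13 receptor and co-receptor genes searched, 9 were listed and tested. Between HC11 and C57MG 6 differed (66.7%, against 70.5% of all tested genes), 4 of them higher in C57MG, and between BC44 and C57MG 7 (77.8% against 71.7%), 5 of them higher in C57MG. In BC44 against HC11 it was 4 (44.4% against 47.7%), 3 of them higher in BC44, so all 3 shares lie near those of all tested genes. Acvr1, another type I receptor for BMPs, was at 20.1 and 19.0 RPKM in C57MG against 7.83 to 8.62 RPKM in the other libraries, above HC11 by 1.17 (SE 0.09, limma adjusted p 1.99e-05). Eng, the co-receptor endoglin, was at 2.20 and 1.81 RPKM in C57MG and under 0.5 RPKM elsewhere. Neo1, a receptor for the RGM co-receptors, was highest in BC44 at 34.6 and 33.3 RPKM, against 18.4 in both C57MG libraries.

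Smad1 and Smad5, which carry the signal to the nucleus, were lowest in C57MG. Smad1 (ENSMUSG00000031681, chr8:79338395-79399518, minus strand) was at 4.616 and 4.619 RPKM in C57MG, 7.71 and 7.52 in BC44, and 8.40 and 8.04 in HC11. C57MG was lowest without overlap, below HC11 by 0.71 (SE 0.09, limma adjusted p 0.000310) and below BC44 by 0.62 (SE 0.09, limma adjusted p 0.000635). BC44 and HC11 differed by -0.10 (95% interval -0.32 to 0.12). Smad5 (ENSMUSG00000021540, chr13:56703010-56742377, plus strand) was at 10.8 and 13.5 RPKM in C57MG, 14.9 and 14.3 in BC44, and 15.7 and 14.5 in HC11. Its C57MG mean was the lowest, but its libraries differed by 1.25-fold, and the difference of 0.30 from HC11 (SE 0.12) had a limma adjusted p of 0.0482. That call did not hold under 10 of 14 alternatives (adjusted p up to 0.333, without C57MG replicate 1). Between BC44 and C57MG Smad5 did not pass (0.26, 95% interval -0.02 to 0.53, limma adjusted p 0.0806), nor between BC44 and HC11 (interval -0.32 to 0.23).

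Of the 4 signal-carrying Smads, 4 differed between HC11 and C57MG, 2 between BC44 and C57MG and 0 between BC44 and HC11 by limma, where 0 also had an unadjusted p under 0.05. The shares over all tested genes were 70.5%, 71.7% and 47.7%, and of the 4 calls for HC11 against C57MG that of Smad4 (0.22, limma adjusted p 0.0395) did not hold under 9 alternatives and that of Smad5 under 10. Smad9, the third BMP-activated Smad, was highest in C57MG, where Smad1 and Smad5 were lowest. It was at 8.13 and 9.27 RPKM in C57MG, 0.051 and 0.160 in BC44, and 0.010 and 0.039 in HC11. Its BC44 values were 0.586% and 1.84% of the C57MG mean, within the range of the C57MG-like signal in those libraries. Smad4, the common partner, was nearly level, at 22.8 to 27.7 RPKM across the 6 libraries.

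Smad6, the inhibitory Smad of the BMP branch (ENSMUSG00000036867, chr9:63953076-64022059, minus strand), separated all 3 lines. It was at 16.3 and 21.5 RPKM in C57MG, 4.50 and 5.08 in BC44, and 1.75 and 1.15 in HC11. No libraries of different lines overlapped. C57MG exceeded HC11 by 3.02 (SE 0.17, limma adjusted p 3.40e-06), a 13.0-fold ratio of means, and exceeded BC44 by 1.77 (SE 0.17, limma adjusted p 4.95e-05), a 3.94-fold ratio. BC44 exceeded HC11 by 1.25 (SE 0.17, limma adjusted p 0.000816). The C57MG-like signal would account for 2.86% and 7.53% of the Smad6 measured in BC44 replicates 1 and 2. Set against the summed Smad1 and Smad5, Smad6 stood at 1.06 and 1.19 in C57MG. The ratio was 0.199 and 0.233 in BC44, and 0.0725 and 0.0511 in HC11. That sum leaves out Smad9, which was at 8.13 and 9.27 RPKM in C57MG and at most 0.160 RPKM elsewhere. With Smad9 included, the C57MG ratios would be lower.

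**Figure D4:**
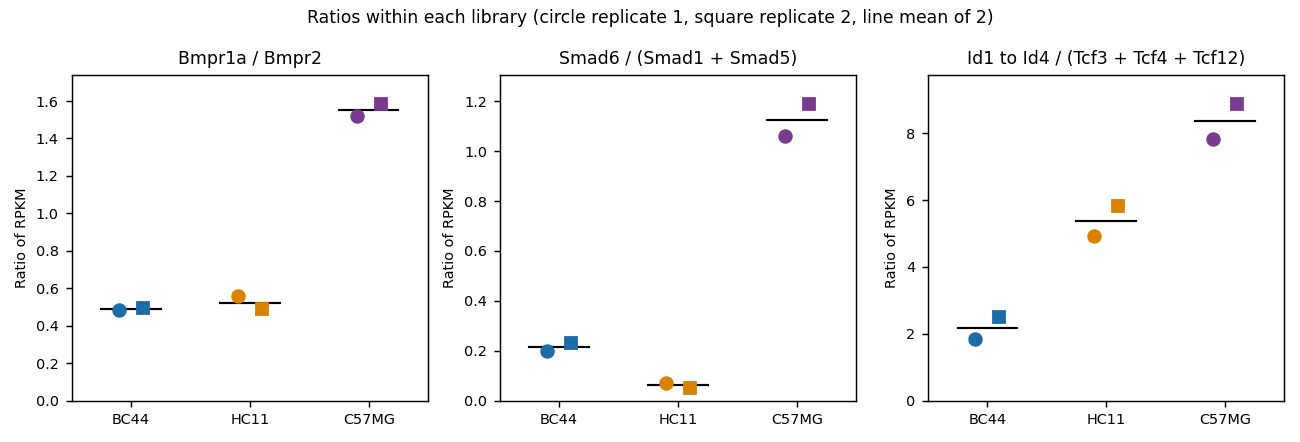
Ratios of RPKM within each library (vertical axes from 0), with circles for replicate 1, squares for replicate 2 and a line for the mean of 2. In C57MG Bmpr1a exceeded Bmpr2, Smad6 reached the level of Smad1 plus Smad5 (Smad9 left out), and the Id genes summed to 7.83 and 8.87 times the E proteins.

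Other genes listed as inhibitors inside the cell were mixed. All 12 listed genes were tested, of which 10 differed between HC11 and C57MG (83.3%, against 70.5% of all tested genes), 5 in each direction. Between BC44 and C57MG it was 8 (66.7% against 71.7%), 5 of them higher in C57MG, and in BC44 against HC11 also 8 (66.7% against 47.7%), 5 of them higher in HC11. Smad7, the inhibitory Smad shared with the TGF-beta branch, followed Smad6 in being highest in C57MG, at 16.8 and 17.7 RPKM against 3.60 and 3.93 in BC44 and 5.32 and 8.40 in HC11. Here HC11 exceeded BC44 by 0.69 (SE 0.18, limma adjusted p 0.0153, but 0.0885 and 0.0588 without BC44 replicate 1 or 2), the reverse of the order for Smad6. Zeb1 and Zeb2, which encode Smad-binding repressors of epithelial genes, are counted in this list but need not both inhibit BMP signalling. They were at 10.6 and 11.3 RPKM and 4.13 and 3.79 RPKM in C57MG. In the BC44 and HC11 libraries Zeb1 was at 0.266 to 0.623 RPKM, and Zeb2 at 0.028 to 1.45 RPKM.

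Most of the tested antagonist genes differed in each of the 3 comparisons. Of 15 antagonist genes searched 11 were listed and 10 tested, and all 10 differed between BC44 and HC11, 6 higher in BC44, against 47.7% of all tested genes. Against C57MG, 8 differed in BC44 (3 higher in BC44, 5 in C57MG) and 9 in HC11 (6 higher in HC11, 3 in C57MG), or 80.0% and 90.0% against 71.7% and 70.5%. Fst, which encodes the activin and BMP antagonist follistatin, was at 305.5 and 273.1 RPKM in BC44, 12.0 and 19.7 for HC11 and 2.04 and 0 in C57MG. BC44 exceeded C57MG by 7.38 (SE 0.46, limma adjusted p 5.37e-06). Sostdc1, an antagonist of BMP and Wnt signalling, was at 97.1 and 87.2 RPKM in BC44, 2.80 and 0.518 for HC11 and 1.01 and 0 in C57MG. The values in C57MG replicate 1 were 0.704% and 1.097% of the BC44 mean for Fst and Sostdc1, near the BC44-like signal in that library. Sostdc1 itself met the rule for the private genes that gave this signal, so for it the nearness is partly built in. Fstl1, a follistatin-like secreted protein, was at 24.9 and 24.0 RPKM in HC11 and at 0.259 to 0.320 RPKM in the BC44 and C57MG libraries.

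Id1, Id2 and Id3 encode helix-loop-helix proteins without a DNA-binding region, and all 3 were lowest in BC44. Id1 (ENSMUSG00000042745, chr2:152736251-152737410, plus strand) was at 47.9 and 70.7 RPKM in BC44, 142.4 and 133.9 in HC11, and 127.7 in both C57MG libraries. BC44 was below HC11 by 1.23 (SE 0.16, limma adjusted p 0.000701) and below C57MG by 1.12 (SE 0.16, limma adjusted p 0.000476). Between HC11 and C57MG the difference was 0.11 (95% interval -0.27 to 0.49, limma adjusted p 0.557). Bmp4 was at the floor in HC11, where Id1 was abundant. In BC44, where Id1 was lowest, Bmp4 could not be told apart from the C57MG-like signal. A link between these genes was not tested.

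Id3 (ENSMUSG00000007872, chr4:136143497-136145755, plus strand) was ordered C57MG, HC11, BC44, with 157.2 and 186.9 RPKM, 72.8 and 77.9 RPKM, and 17.6 and 31.5 RPKM. No libraries of different lines overlapped. C57MG exceeded BC44 by 2.81 (SE 0.23, limma adjusted p 2.22e-05), a 7.003-fold ratio of means, and exceeded HC11 by 1.18 (SE 0.23, limma adjusted p 0.00264). HC11 exceeded BC44 by 1.63 (SE 0.23, limma adjusted p 0.00103).

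Id2 (ENSMUSG00000020644, chr12:25093799-25097140, minus strand) had the same order of means, at 91.2 and 128.3 RPKM in C57MG, 38.1 and 35.5 in HC11, and 11.8 and 31.2 in BC44. C57MG exceeded BC44 by 2.42 (SE 0.38, limma adjusted p 0.000741) and HC11 by 1.53 (SE 0.38, limma adjusted p 0.00799). Between BC44 and HC11 the libraries did not overlap, but the difference of -0.89 (SE 0.38, 95% interval -1.78 to -0.01) had a limma adjusted p of 0.0904. It was -1.56 with an adjusted p of 0.00347 without BC44 replicate 2, and -0.23 with an adjusted p of 0.415 without BC44 replicate 1.

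The BC44 libraries stood apart from each other for the Id genes. Id2 was 2.64-fold higher in BC44 replicate 2 than in replicate 1, Id3 1.78-fold and Id1 1.48-fold. On the log2(RPKM + 1) scale the gaps were 1.33, 0.80 and 0.55, where the median gap over all tested genes was 0.116. A gap as large was found in 0.07%, 0.33% and 1.48% of the tested genes. The C57MG-like signal would give 0.749 and 2.22 RPKM of Id2 in BC44 replicates 1 and 2, or 6.32% and 7.12% of the measured values. For Id3 it would give 6.65% and 11.1%, and for Id1 1.82% and 3.65%. Id4 (named by the rule for the wider lists) ran the other way, at 63.2 and 44.7 RPKM in BC44 replicates 1 and 2. It was at 31.3 and 19.0 RPKM in HC11 and 40.1 and 27.5 in C57MG. BC44 exceeded HC11 for Id4 by 1.09 (SE 0.27, limma adjusted p 0.0136, but 0.102 without BC44 replicate 1 and 0.0549 without HC11 replicate 2).

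**Figure D5:**
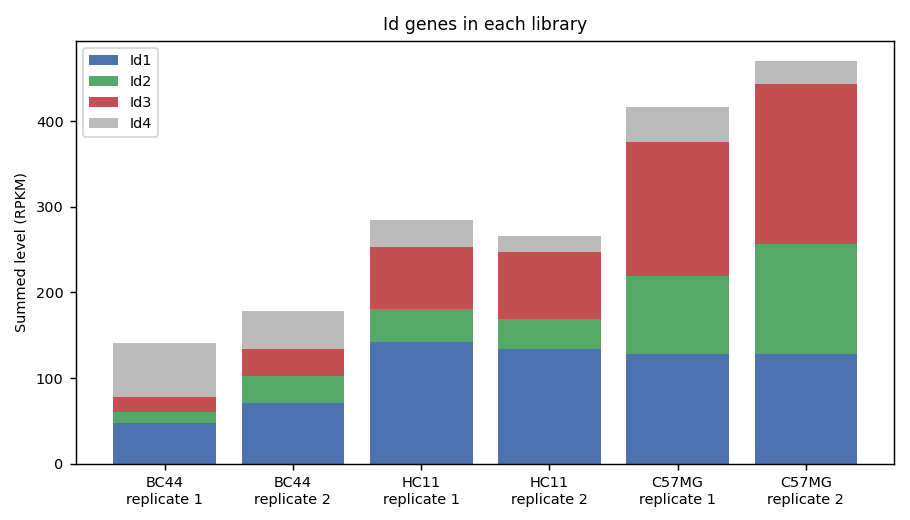
Stacked level in RPKM (from 0) of Id1, Id2, Id3 and Id4 in each library. The sum was 140.6 and 178.1 RPKM in BC44, 284.6 and 266.3 for HC11 and 416.2 and 470.4 in C57MG, and Id4 was the largest share in BC44 replicate 1.

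The makeup of the Id genes differed between lines as well as their sum. Id1 was 50.0% and 50.3% of the summed Id RPKM in HC11, and Id3 was the largest share in C57MG at 37.8% and 39.7%. In BC44 the leading gene was Id4 in replicate 1 (44.9%) and Id1 in replicate 2 (39.7%). E proteins, the partners that ID proteins bind, are encoded by Tcf3, Tcf4 and Tcf12. Their summed level was 76.2 and 71.0 RPKM in BC44, 57.7 and 45.6 for HC11 and 53.1 and 53.1 in C57MG. Tcf3 was higher in BC44 than in HC11 by 0.58 (SE 0.13, limma adjusted p 0.00964, but 0.0709 without BC44 replicate 1), and Tcf4 was higher in BC44 than in C57MG by 0.83 (SE 0.10, limma adjusted p 0.000223). The summed Id level was accordingly 1.85 and 2.51 times the summed E protein level in BC44, 4.94 and 5.84 times for HC11 and 7.83 and 8.87 times in C57MG. The bHLH list adds Hes1 and Max to the E protein genes. Of its 5 tested genes, 5, 4 and 1 differed in BC44 against C57MG, HC11 against C57MG and BC44 against HC11, where 71.7%, 70.5% and 47.7% of all tested genes did. Hes1, a Notch target and bHLH repressor, was lowest in C57MG at 12.7 and 10.0 RPKM, against 28.7 to 33.1 RPKM elsewhere.

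Other genes known to respond to BMP in some tissues did not move as a block. Of 12 searched, 11 were listed and 10 tested. Between HC11 and C57MG 9 differed (90.0%, against 70.5% of all tested genes), 6 of them higher in C57MG. Between BC44 and C57MG it was 6 (60.0% against 71.7%), 3 in each direction, and in BC44 against HC11 it was 8 (80.0% against 47.7%), 5 of them higher in BC44. Atoh8, a bHLH gene induced by BMP in endothelium, was at 15.7 and 23.4 RPKM in C57MG and at 0.087 to 0.563 RPKM elsewhere. Tnfrsf11b, the gene of osteoprotegerin, was at 39.4 and 35.5 RPKM in BC44, 23.4 and 33.6 for HC11 and 0.216 and 0 in C57MG. Dlx3, a homeobox gene of ectodermal tissues, was at 27.6 and 31.6 RPKM in BC44 and at most 0.294 RPKM in the other libraries. Over all 8 lists and without the members, 38 of 52 tested genes (73.1%) differed between BC44 and C57MG, 42 (80.8%) between HC11 and C57MG, and 35 (67.3%) between BC44 and HC11, against 71.7%, 70.5% and 47.7% of all tested genes. Their median log2 differences were 0.03, -0.18 and 0.13, against 0.04, 0.03 and 0.02 for all tested genes.

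The epithelial and mesenchymal markers moved with the genes that set C57MG apart. Bmp4, Bmpr1a, Smad6, Id2 and Id3 were highest in the line in which 0 of 11 epithelial markers reached 1 RPKM in both libraries and all 11 mesenchymal markers did. Of 9 basal mammary markers searched 7 were listed. They summed to 6761 and 6506 RPKM in BC44, 3898 and 3107 RPKM in HC11, and 383.1 and 306.3 RPKM in C57MG. This order, the reverse of that of the summed Id level, was that of Krt5, Krt14, Krt17 and Trp63. Acta2 (105.0 and 136.0 RPKM) and Itga6 (112.6 and 86.8 RPKM) were instead highest in C57MG, and Itgb4 in HC11 (192.5 and 185.1 RPKM). Of 8 luminal markers searched 4 were listed. They summed to 233.2 and 242.4 RPKM in HC11, 0.073 and 0.093 RPKM in BC44, and 0.858 and 1.38 RPKM in C57MG. In HC11 the sum was nearly all Krt8 (144.4 and 148.0 RPKM) and Krt18 (88.5 and 94.1 RPKM), which differed between BC44 and HC11, as Id1 and Id3 did. Prlr was at most 0.114 RPKM in any library, and Esr1 was highest in C57MG (0.551 and 0.831 RPKM). The part of these markers in the BMP and Id values was not tested. Id1 did not follow the mesenchymal markers, with its highest mean in HC11 (138.1 ± 6.01 RPKM, SD, n = 2).

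The 250 bases before the start annotated by RefSeq are shown for Bmp4, Smad6, Id2 and Id3, the members that were at least 2-fold higher in C57MG than in each other line. They come from RefSeq on GRCm38.p6, in which 8 of the 10 members matched by symbol. Each reads 5′ to 3′ on the gene's strand, and capitals mark GGCGCC or GGAGCC, GC-rich words that BMP-activated Smads are known to bind, on either strand. The windows are chr14:46390670-46390919 (minus), chr9:64022060-64022309 (minus), chr12:25096093-25096342 (minus) and chr4:136143572-136143821 (plus). The gene spans given above are those of GENCODE, which reach further upstream for Id2 and Id3, so that the windows of those genes lie inside their spans.
Bmp4: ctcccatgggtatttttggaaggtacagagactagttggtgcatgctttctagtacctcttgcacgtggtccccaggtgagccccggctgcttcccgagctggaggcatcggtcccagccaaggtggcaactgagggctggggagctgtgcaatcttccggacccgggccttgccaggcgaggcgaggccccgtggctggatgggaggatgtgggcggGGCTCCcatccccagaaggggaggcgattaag
Smad6: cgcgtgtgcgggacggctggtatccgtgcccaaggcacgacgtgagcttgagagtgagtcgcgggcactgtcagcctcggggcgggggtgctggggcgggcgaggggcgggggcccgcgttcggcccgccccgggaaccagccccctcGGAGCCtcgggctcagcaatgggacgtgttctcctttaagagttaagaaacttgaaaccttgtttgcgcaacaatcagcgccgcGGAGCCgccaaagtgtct
Id2: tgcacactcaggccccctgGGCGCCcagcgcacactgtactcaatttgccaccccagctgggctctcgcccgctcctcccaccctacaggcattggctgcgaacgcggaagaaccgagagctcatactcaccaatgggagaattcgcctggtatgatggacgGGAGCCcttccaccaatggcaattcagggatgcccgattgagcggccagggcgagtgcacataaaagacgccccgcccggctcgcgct
Id3: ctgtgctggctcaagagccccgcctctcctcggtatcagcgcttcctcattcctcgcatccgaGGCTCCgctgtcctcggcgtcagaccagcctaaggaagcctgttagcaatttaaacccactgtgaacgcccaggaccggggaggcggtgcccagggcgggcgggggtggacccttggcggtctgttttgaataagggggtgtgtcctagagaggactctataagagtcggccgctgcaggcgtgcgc

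In these windows GGAGCC occurred once each before Bmp4, Id2 and Id3 and 2 times before Smad6, and GGCGCC once before Id2. The first is GGCTCC where it lies on the other strand, as before Bmp4 and Id3. Of the 8 members with a window, 5 held GGAGCC (the fifth is Smad5, in 1 of its 3 windows) and 4 held GGCGCC (Id2, Bmpr1a, Bmpr2 and 1 window of Smad5). Among the windows of the same length before tested genes, 35.4% of 10955 held GGAGCC and 17.3% held GGCGCC. A member was counted if any of its windows held the word, while these shares are of single windows, so the figures are not like for like. GTCTAGAC, the palindromic Smad word, was in none of the members' windows and in 0.2% of those of tested genes. These matches are letters only and describe no binding.

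The genes most like the members were found by Euclidean distance between profiles of log2(RPKM + 1), centred on each gene's mean, over the 6 libraries and 10759 genes. For Bmp4 these were Colec12 (distance 0.20), Angpt4 (0.27) and Itga11 (0.28), with 54.9 and 52.9 RPKM of Colec12 in C57MG and at most 0.759 RPKM elsewhere. For Smad6 they were Car5b (0.26), Them6 (0.29) and Sesn1 (0.39), and Car5b was at 20.7 and 24.7 RPKM in C57MG, 6.65 and 7.39 in BC44, and 2.65 and 2.04 in HC11. For Id3 they were Dagla (0.53), Samd4 (0.58) and Arhgap28 (0.58). Id3 had no neighbour as close as those of Bmp4 and Smad6, and all 3 of its neighbours were at 0.309 RPKM or less in BC44, where Id3 itself stayed above 17 RPKM.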

How the data were processed

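Poly(A) RNA from 6 libraries of 3 mouse mammary cell lines was sequenced with strand-directional kits, per the labels' protocols. The deposited values are RPKM computed by the authors, to 3 decimals, for 11417 genes. STAR and the mouse build mm9 are named in the submitters' processing notes. The counter, annotation, gene lengths, use of strand and rule for listing genes are not given in the sources used here, so overlapping antisense genes are uncertain. All 11417 identifiers matched GENCODE M21 (GRCm38), which gave coordinates and union exon lengths. Depth was estimated as the step that put low values nearest to whole reads: 75.3% to 80.4% of 256 to 401 values per library lay within 0.15 of a whole read, against 30.0% by chance. A floor of 3 reads is 0.082 to 0.106 RPKM for a 2 kb gene and covers counting error only.

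In R 4.3.3, limma 3.58.1 (eBayes with trend) was fitted to log2(RPKM + 1), on the 10759 genes with at least 1 RPKM in at least 2 libraries and all 6 libraries, adjusted by Benjamini-Hochberg within each contrast, with a threshold of 0.05. Differences on this scale understate those of low genes. On simulated data, 190 of 200 genes changed by 1.5 were called among 10759 genes for BC44 against HC11, with 6 wrong calls in 196. For BC44 against C57MG 191 of 200 were called with 11 wrong calls in 202, and for HC11 against C57MG, where no gene was changed, 0 were called. The simulated libraries had independent normal noise around 1 mean per gene, and far fewer genes changed than were called in the real data. These rates of calls therefore need not hold for the real libraries. Private genes had a mean of at least 20 RPKM in their line, at most 2% of that in the third line (5% in BC44 for HC11) and at most 5% in the other replicate, with limits known from earlier results. Members and gene lists were chosen with earlier results of these data known. Named genes were the 10 members, up to 3 passing genes with the largest change per list, and the 3 nearest profiles of the 3 members with the widest range. Other genes labelled in the pathway plot have a difference of at least 2. Alternatives were a pseudocount of 0.1, no filter, a mean of at least 5 RPKM, quantile and median-ratio scaling, only the 4 libraries compared, no trend, a replicate block and each library left out. Python 3.11.15, pandas 2.3.3, numpy 2.4.6 and matplotlib 3.10.9 were used.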

Additional observations from a re-analysis of the deposited data

How the results depend on the processing

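The counts of members that differed stayed within 1.5 times under every alternative run: 4 to 6 for BC44 against HC11, 7 to 9 for BC44 against C57MG and 6 to 9 for HC11 against C57MG. Leaving out each library gave 4 to 5, 7 to 9 and 6 to 8 members, and 3600 to 4758, 6128 to 7947 and 5835 to 7339 genes in the same order. With either C57MG library left out Bmp4 fell under the filter, so none of its 3 comparisons was tested there, and with only the 4 libraries compared it was not tested for BC44 against HC11. The labels do not tie replicate numbers to a shared culture or day, and deviations of same-numbered libraries correlated across genes at 0.354, -0.039 and 0.038 in the same order, so the numbers were not used as pairs. With the replicate block 6, 8 and 9 members and 5350, 7875 and 7721 genes passed. The block added Id2 between BC44 and HC11 (adjusted p 0.0279) and, for Id4, BC44 against C57MG (0.66, adjusted p 0.000240) and HC11 against C57MG (-0.43, adjusted p 0.00270). For the members, 391 of 413 gene-level alternatives kept direction and side of the threshold, 14 lost a call, 6 gained one and 2 reversed. Those 2 were values near 0 between BC44 and HC11: with each library left out in turn Bmp1 ran from -0.01 (without BC44 replicate 1) to 0.15, and Smad5 from -0.10 to 0.01 (without HC11 replicate 1). Bmp1 between BC44 and C57MG gained a call under quantile normalization, median-ratio scaling and without BC44 replicate 1 (adjusted p 0.0338 to 0.0414), and Smad5 without C57MG replicate 2 (0.0293). Other reversals, none of them past the threshold, were Atoh8 (-0.41 to 0.08) and Hes1 (-0.15 to 0.04) between BC44 and HC11, positive without HC11 replicate 2, and Fstl1 at -0.26 between BC44 and C57MG under quantile normalization. Between HC11 and C57MG they were Dlx3 (-0.32 to 0.05), positive without C57MG replicate 1, and Tcf3 (-0.21 to 0.20), positive without C57MG replicate 1 (0.01) or HC11 replicate 2. Smad4, called between HC11 and C57MG (0.22, limma adjusted p 0.0395), lost that call under 9 alternatives (up to 0.168). The causes were not tested. Depth limits Bmp4 in HC11 and Bmp7 in C57MG, which were at or under 3 estimated reads.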

Other observations

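In BC44, 7 of 10759 tested genes had a gap between replicates as large as that of Id2, and they were looked at after the gap was seen. Besides Id2, Vim was at 15.2 and 49.4 RPKM in BC44 replicates 1 and 2, Fosl1 at 1.24 and 5.04, Ccl7 at 0.683 and 3.43, Cxcl5 at 2.40 and 7.93 and Serpinh1 at 3.29 and 10.1, all higher in replicate 2. Mir3064 was lower there, at 45.9 and 17.1 RPKM. Vim, Ccl7 and Serpinh1 were abundant in C57MG, at 2282 to 2708, 205.4 to 214.0 and 541.6 to 567.7 RPKM. Cxcl5 was at 244 and 395 RPKM in C57MG and at 683 and 1405 RPKM in HC11. Fosl1 was at 102.0 and 64.6 RPKM in C57MG and at 22.3 and 56.6 RPKM in HC11. The Id2 levels of BC44 replicates 1 and 2 were 10.8% and 28.4% of the mean level in C57MG. For the genes private to C57MG the medians were 0.682% and 2.02% in the same order. The source of these gaps between replicates was not tested.

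Id4 was lower in replicate 2 than in replicate 1 of every line, by 1.41-fold in BC44, 1.46-fold in C57MG and 1.65-fold in HC11. A gap as large was found in 2.26%, 1.47% and 2.25% of tested genes.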
